A study of Mus musculus with 26 samples.

Results

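Elongation factors and a few other translation proteins are made from TOP mRNAs, whose 5′ end is a C followed by a run of pyrimidines (a terminal oligopyrimidine tract). 8 such mRNAs were followed here in macrophages of mouse mammary tumours, taken as the rows named exactly Eef1a1, Eef1b2, Eef1d, Eef1g, Eef2, Pabpc1, Tpt1 and Npm1, which are 8 of the 19549 gene rows of each count table. All 8 rows were present in the 26 libraries and all 8 passed the filter on low counts in each fit. The macrophages were sorted from tumours that grew after PyMT mammary tumour cells were placed in the mammary gland of female FVB mice, 5-7 weeks old at injection. The gate took CD11b+ F4/80+ Ly6G- cells, and cycloheximide in the buffer stopped ribosomes on mRNA. Total mRNA came from about 10% of the sorted cells, and the other cells went onto a sucrose gradient whose fractions with at least 3 ribosomes on an mRNA were pooled as polysome mRNA. Polysome mRNA and total mRNA of the same 13 tumours gave 13 libraries each. Batch 2 held 3 large tumours named LR1 to LR3 (1668 to 2245 mg) and 3 small tumours named ER1 to ER3 (467 to 653 mg). Batch 1 held 2 large tumours, T4 and T22 (1504 and 1578.5 mg), and 5 small tumours, T2, T3, T15, T16 and T19 (638.5 to 841.8 mg). Large and small were divided at 1000 mg here, since the labels give weights and no size classes. The labels name no mutation and no treatment of the animals, and PyMT cells were injected for every group, so all groups share the same model of an implanted tumour. In bulk RNA of sorted cells, fewer cells of a type and less RNA per cell cannot be told apart.

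In an elongating ribosome eEF1A, encoded by Eef1a1, brings aminoacyl-tRNA to the ribosome and uses GTP to do so. The subunits encoded by Eef1b2 and Eef1d exchange the spent GDP for GTP, the subunit encoded by Eef1g holds that exchange complex together, and eEF2 moves the ribosome along by a codon. Pabpc1 encodes the cytoplasmic poly(A) binding protein, Tpt1 the translationally controlled tumour protein, and Npm1 nucleophosmin, a nucleolar chaperone of ribosome assembly. Cells are known to move TOP mRNAs between polysomes and free particles as a class, under the kinase mTORC1 and the binding protein Larp1, so that the supply of translation machinery follows growth conditions.

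Stretches of 30 bases from the annotated 5′ region are shown for 7 of the 8 mRNAs, since a tract at the very start defines the class. The first C followed by at least 4 pyrimidines is in capitals with its run. The bases come from GENCODE release M21 on GRCm38, the build that mm10 names. For Eef1d, Pabpc1 and Tpt1 an annotated transcript begins with such a run. The other stretches begin 10 bases before the first run, which is not at the annotated start but at base 54 of the principal transcript of Eef1a1, 44 of Eef1g, 16 of Eef2 and 90 of Npm1. In these 4 the capitals are not shown to be the terminal tract.
Eef1a1: cttggacgttCTTTTTCgcaacgggtttgc
Eef1d: CTCTCCTTTgcagtcctgagctcgcagttc
Eef1g: cgtgcgtatgCCTTTTatgccgtcctcgct
Eef2: cgtcagcggtCTCTTCCgccgcagccgccg
Pabpc1: CCCCTTCTCCCCggcggttagtgctgagag
Tpt1: CTTTTCCgcccgctcccccctccccccgcg
Npm1: ctcgcgagatCTCCTgcgaccatatatacg
These stretches lie at chr9:78481652-78481681 on the minus strand (Eef1a1), chr15:75909277-75909306 on the minus strand (Eef1d) and chr19:8967074-8967103 on the plus strand (Eef1g). The other stretches lie at chr10:81176636-81176665 on the plus strand (Eef2), chr15:36608944-36608973 on the minus strand (Pabpc1), chr14:75845331-75845360 on the plus strand (Tpt1) and chr11:33163098-33163127 on the minus strand (Npm1). The Tpt1 transcript that begins with the tract is annotated as a retained intron. A transcript that begins with the tract was annotated for 3 of the 7 members shown, for 35 of 79 cytosolic ribosomal protein genes (44.3%), for 7 of 15 other TOP mRNAs (46.7%) and for 8.53% of all 21923 genes searched. The motif was CNNNN on the transcript strand with every N a pyrimidine, and 75.6% of 21877 principal transcripts hold such a stretch somewhere in their first 100 bases, so a match away from the annotated start is common. In the RefSeq windows of 300 bases around the annotated start, which matched Eef1a1, Eef1b2, Eef2 and Tpt1, the tract began within 5 bases of that start in 1 of 4 members and in 21.2% of all windows. No window of Eef1d, Eef1g, Pabpc1 or Npm1 was matched.

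Library totals were 7034173 to 28257436 counts in polysome mRNA and 18018519 to 55609113 in total mRNA. Among small tumours the polysome totals moved with batch, at 16431776 to 20284077 counts in batch 2 and 7034173 to 10135223 in batch 1. Those of large tumours overlapped, at 14315435 to 28257436 counts in batch 2 and 13045733 to 20699272 in batch 1, so in batch 1 polysome totals also moved with size. The summed level of 8 macrophage markers was 2051 to 19302 CPM (counts scaled to the size of the library) in polysome mRNA of batch 2 and 8624 to 15540 in that of batch 1. The marker sums were not scaled with TMM factors, while the CPM of the members and of other single genes below were. None of the 8 markers was at 0 in any library. Tumour ER2 stood apart, with the lowest macrophage sum (2051 CPM in polysome mRNA and 7394 CPM in total mRNA) and the highest epithelial and fibroblast sums in total mRNA, 4763 and 3065 CPM. In batch 1 tumour T2 had the highest fibroblast sums, 2344 CPM in total mRNA (next T3 at 370 CPM) and 434 CPM in polysome mRNA. The total mRNA libraries of ER1, ER2 and LR1 also stood apart through Lars2, a mitochondrial tRNA synthetase gene that otherwise took many reads. It took 0.00304%, 0.00658% and 0.00406% of their counts, against 0.0502 to 0.571% in the other batch 2 total mRNA libraries and 0.433 to 0.902% in those of batch 1. Results that rest on these 3 tumours are given with and without them, for some genes of the lists only as a count of the list.

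Summed over the 8 mRNAs, the share of all counts was 0.539 to 1.04% in polysome mRNA of batch 2 and 0.166 to 0.373% in that of batch 1, with no overlap. In total mRNA the share was 0.138 to 0.859% in batch 2 and 0.511 to 0.921% in batch 1, and the batches overlapped. The 3 lowest shares of total mRNA were those of ER1 (0.138%), LR1 (0.160%) and ER2 (0.279%). Per kilobase of the principal transcript, Eef1a1 was the most abundant of the 8 in both RNA sources, with a median level of 1367 CPM per kilobase in polysome mRNA and 1876 in total mRNA over 13 tumours. In polysome mRNA the median levels then ran from Eef2 (300.3 CPM per kilobase) over Eef1g (114), Pabpc1 (107), Tpt1 (82.0), Npm1 (48.4) and Eef1d (41.7) to Eef1b2 (21.7). In total mRNA they ran from Tpt1 (413 CPM per kilobase) over Eef2 (259), Eef1g (184), Npm1 (166), Eef1b2 (103) and Pabpc1 (64.7) to Eef1d (59.7). The ranges over the 13 tumours of all neighbours in either order overlapped, also that of Eef1a1, whose lowest library had 519 CPM per kilobase in polysome mRNA and 307 in total mRNA. This pooled order holds in neither batch. In polysome mRNA of batch 2 Tpt1 (median 447 CPM per kilobase) lay above Eef2 (417) and Eef1b2 (88.7) above Eef1d (49.0). In that of batch 1 Eef2 (259) was followed by Pabpc1 (92.3), Eef1g (73.5) and Tpt1 (43.6). The annotated principal transcript of Eef1b2 is 1939 bases long for a coding length of 678 bases, which lowers its level per kilobase.

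The RNA sources were compared within each tumour, and the outcome depended on the batch. In batch 2, 3 of the 8 mRNAs were higher in polysomes (Eef1a1, Eef2 and Pabpc1) and none was lower, while in batch 1, 6 were lower and none was higher. Of all 12109 genes tested, 34.6% were called in batch 2 (15.8% higher, 18.9% lower) and 52.5% in batch 1 (20.6% higher, 31.9% lower) at an adjusted p below 0.05 (quasi-likelihood test of edgeR, Benjamini-Hochberg adjustment over all genes tested, as for every adjusted p below). The median log2 fold of polysome against total mRNA over the members was 0.74 in batch 2 and −1.85 in batch 1, beside −0.18 in batch 2 and −0.48 in batch 1 over all genes tested. Without ER1, ER2 and LR1, the batch 2 folds of Eef1a1, Eef1b2, Eef1d, Tpt1 and Npm1 turned negative. The test of the batch difference itself called 7 of 8 members, all with the higher fold in batch 2, where 17.4% of all genes were called in either direction, 10.5% with the higher and 6.95% with the lower fold in batch 2. The median difference over the members was 2.45 on the log2 scale, against 0.26 over all genes tested. The labels give the batch as a number only, and batch cannot be told apart from anything else that differed between those tumours.

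**Figure D1:**
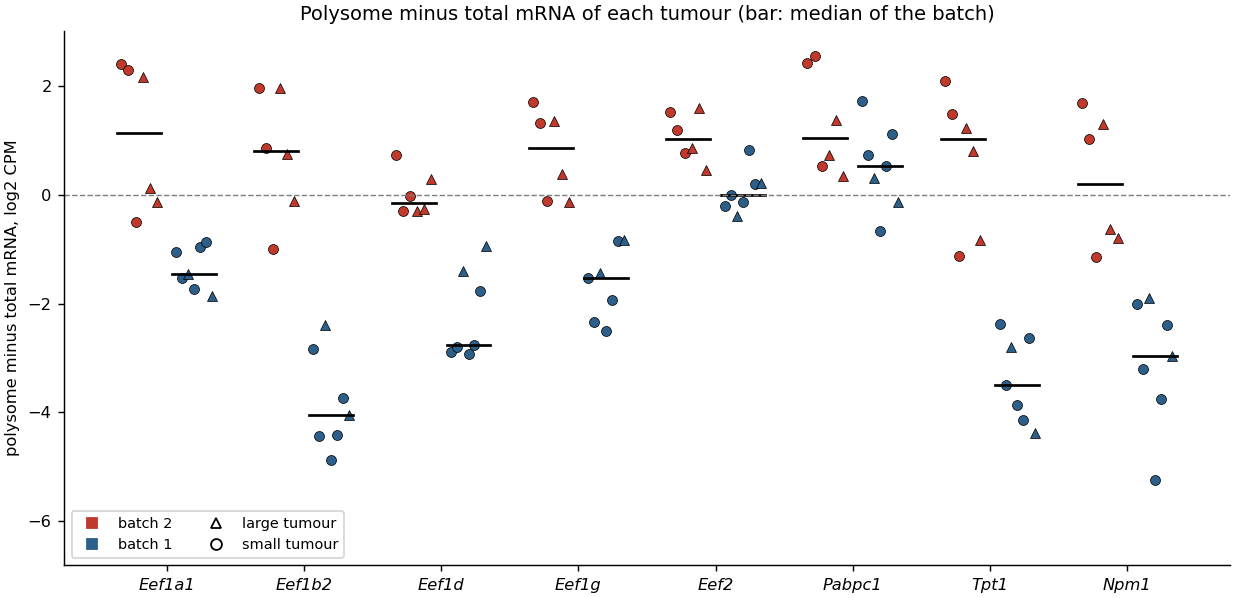
Polysome minus total mRNA on the log2 CPM scale for each member (x axis) and tumour (points), batch 2 in red left of batch 1 in blue, triangles for large and circles for small tumours, bars for batch medians. For Eef1a1, Eef1b2, Eef1d, Eef1g, Tpt1 and Npm1 each batch 2 tumour lies above each batch 1 tumour.

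Eef1a1, the most abundant of the set, had 2453 to 3249 CPM in polysome mRNA of batch 2 (median 2904), against 931 to 2551 CPM in that of batch 1 (median 1700). In total mRNA it had 551 to 4616 CPM in batch 2 (median 1427), against 3100 to 5803 CPM in batch 1 (median 3784). The polysome levels of the batches overlapped slightly and the total mRNA levels of batch 2 fell into 3 low and 3 high tumours. Polysome minus total on the log2 scale was −0.51 to 2.39 in batch 2 (median 1.13), against −1.85 to −0.87 in batch 1 (median −1.46), with no overlap. The log2 fold was 1.07 ± 0.35 in batch 2 (SE, adjusted p = 0.0206) and −1.48 ± 0.32 in batch 1 (adjusted p = 0.000441). The difference of 2.54 ± 0.48 between batches passed the test (adjusted p = 0.000659). Without ER1, ER2 and LR1 it was 1.23 (adjusted p = 0.0627), and the batch 2 fold was −0.07 (adjusted p = 0.914). The batch 2 fold also lost its call when 1 of these tumours alone was left out, with an adjusted p of 0.112 without ER1, 0.0857 without ER2 and 0.106 without LR1.

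Eef1b2, an exchange subunit, had the largest batch difference of the 8 mRNAs. It had 78.9 to 267 CPM in polysome mRNA of batch 2 (median 172), against 10.1 to 42.0 CPM in that of batch 1 (median 14.1). Its total mRNA had 43.1 to 290 CPM in batch 2 (median 103), against 188 to 319 CPM in batch 1 (median 221). So every batch 2 polysome library lay above every batch 1 polysome library, while the total mRNA levels overlapped. Polysome minus total was −0.99 to 1.97 in batch 2 (median 0.80), against −4.88 to −2.40 in batch 1 (median −4.05). The log2 fold was 0.73 ± 0.36 in batch 2 (SE, adjusted p = 0.118) and −3.71 ± 0.37 in batch 1 (adjusted p = 2.3e-08), and the difference was 4.44 ± 0.52 (adjusted p = 1.26e-05). With ER1, ER2 and LR1 left out, the difference was 3.32 (adjusted p = 0.00127), and the batch 2 fold turned negative.

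Eef1d had 96.4 to 178 CPM in polysome mRNA of batch 2 (median 113), against 14.9 to 101 CPM in that of batch 1 (median 22.5). In total mRNA its levels were 78.5 to 182 CPM in batch 2 (median 124), against 111 to 196 CPM in batch 1 (median 153). Both sources overlapped between batches, in polysome mRNA only through tumour T22 at 101 CPM, above LR3 at 96.4 CPM. Its polysome minus total difference was −0.31 to 0.73 in batch 2 (median −0.15), against −2.93 to −0.95 in batch 1 (median −2.76), with no overlap. On the log2 scale the fold was 0.02 ± 0.27 in batch 2 (SE, adjusted p = 0.973) and −2.09 ± 0.27 in batch 1 (adjusted p = 8.23e-07). The difference was 2.10 ± 0.39 (adjusted p = 0.000551), and 1.83 to 2.35 over all alternatives tried. In ER1, ER2 and LR1 its total mRNA had 108, 138 and 131 CPM, inside the range of the other batch 2 tumours.

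Eef1g, the scaffold of the exchange complex, had 284 to 534 CPM in polysome mRNA of batch 2 (median 373), against 60.3 to 213 CPM in that of batch 1 (median 137), with no overlap. Its total mRNA had 120 to 410 CPM in batch 2 (median 252), against 340 to 428 CPM in batch 1 (median 380). Polysome minus total was −0.14 to 1.70 in batch 2 (median 0.85), against −2.51 to −0.84 in batch 1 (median −1.53). The batches stayed apart on this scale as well. The log2 fold was 0.75 ± 0.30 in batch 2 (SE, adjusted p = 0.0536) and −1.61 ± 0.29 in batch 1 (adjusted p = 5.27e-05), with a difference of 2.36 ± 0.42 (adjusted p = 0.000393). Without ER1, ER2 and LR1 the difference was 1.48 (adjusted p = 0.034).

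Eef2, the translocation factor, was not called in batch 1, where the 4 eEF1 mRNAs were lower in polysomes. It had 1079 to 1888 CPM in polysome mRNA of batch 2 (median 1287), against 565 to 928 CPM in that of batch 1 (median 800.1), with no overlap. In total mRNA it had 365 to 960.4 CPM in batch 2 (median 711), against 496 to 1130 CPM in batch 1 (median 799), and these overlapped widely. The difference of polysome minus total was 0.45 to 1.60 in batch 2 (median 1.02), above 0 in all 6 tumours, against −0.39 to 0.82 in batch 1 (median 0.0021), above 0 in 4 of 7 tumours. In the fit the log2 fold was 1.06 ± 0.24 in batch 2 (SE, adjusted p = 0.00143) and 0.02 ± 0.23 in batch 1 (adjusted p = 0.936). Its batch 2 fold was the only one of the 8 still called without ER1, ER2 and LR1, at 1.03 (adjusted p = 0.0369). The difference between batches was 1.04 ± 0.33 (adjusted p = 0.0317), close to the threshold, and it missed the threshold under 10 of 21 alternatives. These include leaving out T3, T4, T15, ER1, ER2 or LR2 alone (adjusted p of 0.0575 to 0.0911) and leaving out ER1, ER2 and LR1 together (adjusted p = 0.194).

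Pabpc1 was the other member that was not called in batch 1. It had 301 to 1353 CPM in polysome mRNA of batch 2 (median 537), against 139 to 747 CPM in that of batch 1 (median 260.0). Its total mRNA had 148 to 409 CPM in batch 2 (median 206), against 127 to 237 CPM in batch 1 (median 182). Both sources overlapped between batches. Polysome minus total was 0.35 to 2.55 in batch 2 (median 1.05), above 0 in 6 of 6 tumours, against −0.67 to 1.73 in batch 1 (median 0.52), above 0 in 5 of 7 tumours. The log2 fold was 1.33 ± 0.31 in batch 2 (SE, adjusted p = 0.00164) and 0.35 ± 0.29 in batch 1 (adjusted p = 0.331). The difference of 0.99 ± 0.42 did not pass (adjusted p = 0.111), and the batch 2 fold was 0.88 without ER1, ER2 and LR1 (adjusted p = 0.132).

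Tpt1, with the shortest coding sequence of the 8 mRNAs, had 331 to 744 CPM in polysome mRNA of batch 2 (median 523), against 17.1 to 95.8 CPM in that of batch 1 (median 51.0). Its total mRNA had 172 to 1066 CPM in batch 2 (median 248), against 354 to 707 CPM in batch 1 (median 495). The polysome levels of the batches lay far apart and the total mRNA levels overlapped. Polysome minus total was −1.12 to 2.09 in batch 2 (median 1.02), against −4.37 to −2.37 in batch 1 (median −3.50). Its fold was, on the log2 scale, 0.65 ± 0.37 in batch 2 (SE, adjusted p = 0.184) and −3.46 ± 0.38 in batch 1 (adjusted p = 6.4e-08). The difference was 4.11 ± 0.53 (adjusted p = 1.92e-05), and 2.92 without ER1, ER2 and LR1 (adjusted p = 0.00353). The batch 2 fold turned negative without these tumours.

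Npm1 had 107 to 249 CPM in polysome mRNA of batch 2 (median 206), against 9.74 to 79.1 CPM in that of batch 1 (median 37.2), with no overlap. In total mRNA it had 70.7 to 285 CPM in batch 2 (median 179), against 208 to 415 CPM in batch 1 (median 319). Polysome minus total was −1.14 to 1.69 in batch 2 (median 0.19), on either side of 0 in 3 tumours each, against −5.24 to −1.90 in batch 1 (median −2.96). The lowest tumour of batch 2, ER3, still lay above the highest of batch 1, T4. The log2 fold was 0.24 ± 0.41 in batch 2 (SE, adjusted p = 0.687) and −3.00 ± 0.40 in batch 1 (adjusted p = 1.25e-06). The difference was 3.23 ± 0.58 (adjusted p = 0.000395), and 1.92 without ER1, ER2 and LR1 (adjusted p = 0.0347). The batch 2 fold turned negative without these tumours.

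**Figure D2:**
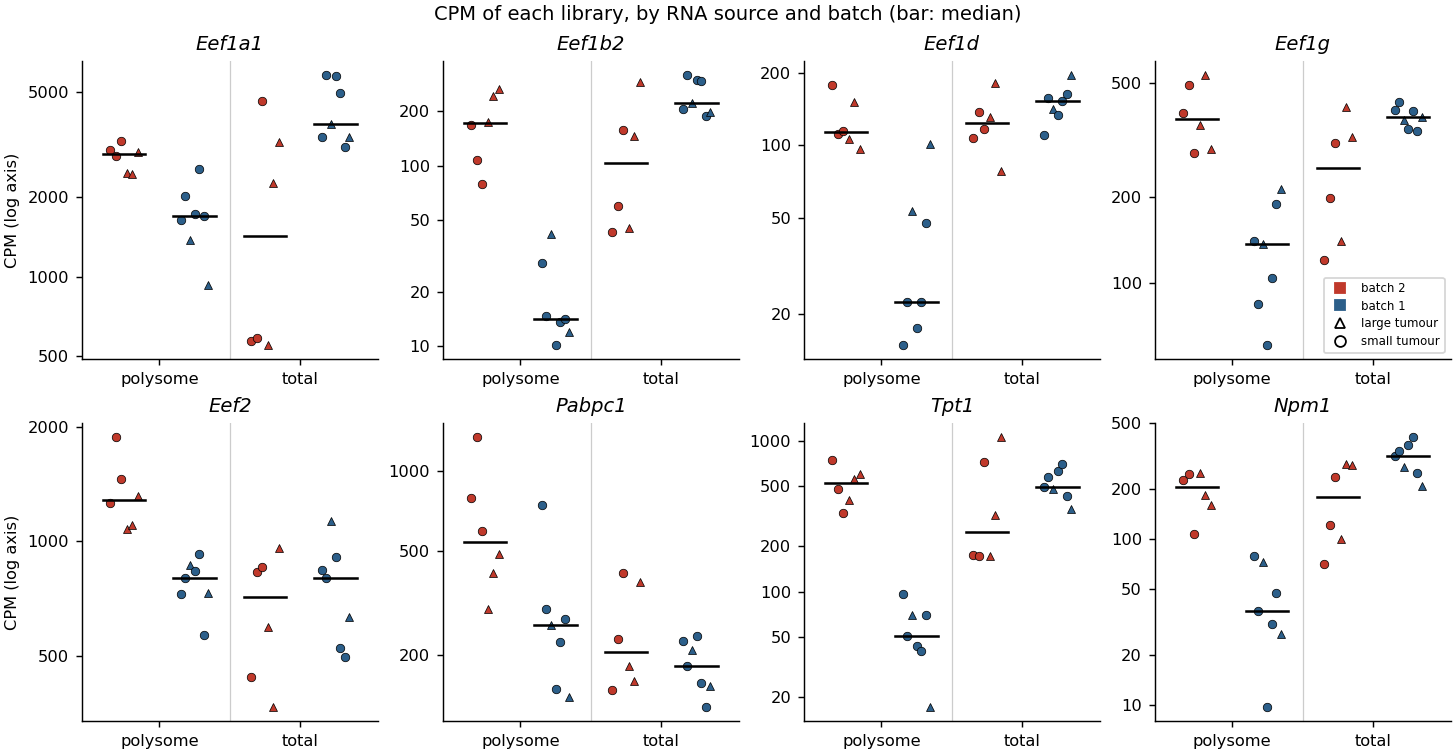
CPM of each library on a log axis, polysome mRNA left of total mRNA and batch 2 (red) left of batch 1 (blue) in each panel, triangles for large and circles for small tumours, bars for medians. Polysome levels of Eef1b2, Eef1g, Eef2, Tpt1 and Npm1 do not overlap between batches, and 3 batch 2 tumours hold the lowest total mRNA levels of Eef1a1, Eef1b2 and Npm1.

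The batches were also compared across tumours within each RNA source. In polysome mRNA 8 of 8 members were higher in batch 2, where 21.4% of 10933 genes were called in either direction, 11.0% higher and 10.3% lower. The log2 differences in polysome mRNA were 3.29 ± 0.37 for Tpt1, 2.93 ± 0.35 for Eef1b2, 2.13 ± 0.39 for Npm1 and 1.71 ± 0.36 for Eef1d (SE). The other four differences were smaller, at 1.51 ± 0.30 for Eef1g, 1.23 ± 0.36 for Pabpc1, 0.85 ± 0.29 for Eef1a1 and 0.80 ± 0.26 for Eef2. In total mRNA 0 of 8 members passed, where 16.7% of 11671 genes were called (11.1% higher and 5.66% lower), and the log2 differences were −1.08 to 0.51. Of these 8 differences 1 was above 0, and their median was −0.45, beside 0.11 over all genes tested. For Eef1a1 the difference in total mRNA was −1.04 ± 0.53 (SE), beside 0.85 in polysome mRNA. At an unadjusted p below 0.05, 2 members were lower in total mRNA of batch 2, Eef1b2 and Eef1g. Of all genes in total mRNA, edgeR called 1292 higher and 660 lower in batch 2, and voom 895 higher and 1104 lower. DESeq2 and voom each called 1 member there, Eef1b2, at −1.07 (adjusted p = 0.04) and −1.34 (adjusted p = 0.0428). By edgeR 1 member was also called without LR3, Eef1b2 at −1.42 (adjusted p = 0.0233), and without ER3, Eef1a1 at −1.98 (adjusted p = 0.0321). Every batch 2 polysome library lay above every batch 1 polysome library for 5 members, a pattern seen in 4.54% of 12109 genes, and below for 0 members and 3.4% of genes. For total mRNA this held for 0 members and for 1.09% of genes, and the opposite pattern also held for 0 members and for 1.17% of genes. For polysome minus total the first pattern held for 6 members and for 3.91% of genes, and the opposite for 0 members and for 2.44%.

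Without ER1, ER2 and LR1, 4 of 8 members were still called in polysome mRNA between batches (Eef1b2, Eef1d, Eef1g and Tpt1), with Tpt1 at 3.20 and Eef1b2 at 2.81. Of all genes, 939 were called there, against 2336 with all tumours. The same 4 members and Npm1 were still called for polysome minus total, 5 in all, and in batch 2 itself only Eef2 was still called. In batch 2 itself 1666 of all genes were then called, against 4195 with all tumours. Leaving out ER3 alone gave 6 members higher in polysomes of batch 2 and leaving out LR3 alone gave 5, against 3 with all tumours. Leaving out T22 alone gave 5 members called in polysome mRNA between batches, against 8. Leaving out ER1, ER2 and LR1 leaves 3 tumours in batch 2 and called 865 genes in the batch difference, against 2107 with all tumours. So fewer of all genes were called in these refits, and the lost calls are not particular to the members. The share of all genes called without a single tumour is not given here, so those member counts are no result about the members. Tumour by tumour, the median of the 8 differences was 1.83 in ER1, 1.27 in LR1, 1.25 in ER2 and 0.56 in LR2, and it was −0.13 in LR3 and −0.31 in ER3. In batch 1 it was −2.72 to −1.32, so the lowest batch 2 tumour lay above the highest batch 1 tumour. Ribosomal protein mRNAs took 4.31 to 6.46% of polysome counts in batch 2 and 0.690 to 1.59% in batch 1, and Lars2 took 2.17 to 10.3% of them in batch 2 and 4.80 to 25.9% in batch 1. Epithelial and fibroblast markers were highest in ER2. Without ER2 alone 6 members were called in the batch difference, a count that is likewise no result about the members. The part of sequencing depth, library composition and Lars2 reads in these differences was not tested.

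Averaged over both batches with equal weight, 6 of 8 members passed for polysome against total mRNA, beside 56.6% of all genes, 22.6% higher and 34.0% lower. Eef2 (0.54 ± 0.17, SE, adjusted p = 0.00741) and Pabpc1 (0.84 ± 0.21, adjusted p = 0.00149) were higher in polysomes. Eef1b2 (−1.49 ± 0.25), Tpt1 (−1.41 ± 0.26), Npm1 (−1.38 ± 0.28) and Eef1d (−1.04 ± 0.19) were lower, with adjusted p of at most 0.000209. Eef1g at −0.43 ± 0.21 (adjusted p = 0.0784) and Eef1a1 at −0.20 ± 0.23 (adjusted p = 0.472) did not pass. Since the batches differed, this average describes neither of them.

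**Figure D3:**
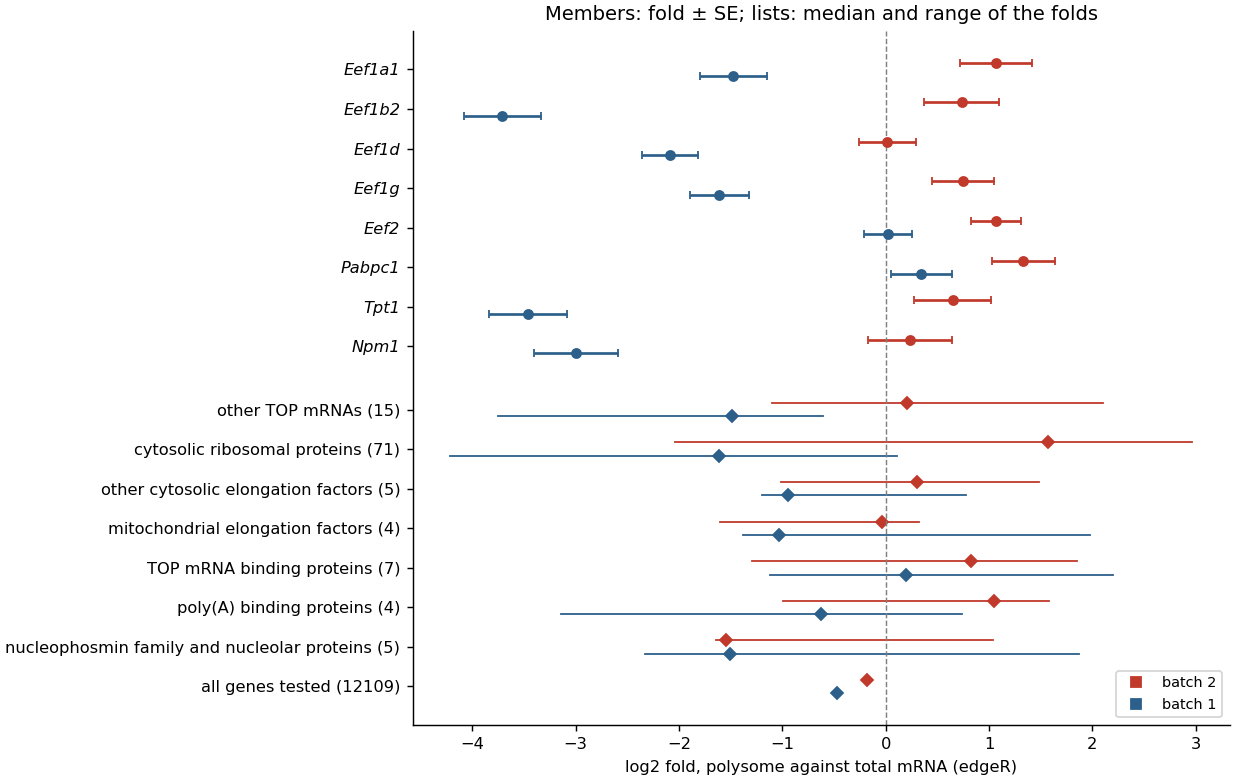
Log2 fold of polysome against total mRNA (x axis) in batch 2 (red, upper) and batch 1 (blue, lower), for each member with its SE and for each gene list as a diamond at the median with a line over the range, numbers of genes in parentheses. The batch 1 folds of Eef1b2, Tpt1 and Npm1 lie at −3.00 or below, and the batch 2 folds of all 8 members lie at or above 0.02. Without ER1, ER2 and LR1, not drawn, the batch 2 folds of Eef1a1, Eef1b2, Eef1d, Tpt1 and Npm1 were negative.

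Among the 8 mRNAs the batch 1 fold followed the coding length. Pabpc1 (1911 coding bases) and Eef2 (2577) had folds of 0.35 and 0.02, Eef1g (1314) and Eef1a1 (1389) had −1.61 and −1.48, and the 4 mRNAs of 519 to 879 coding bases had −3.71 to −2.09. Across the 8 members the fold and the log2 coding length had a Pearson r of 0.94 and a Spearman rho of 0.93 in batch 1, and 0.64 and 0.74 in batch 2. These 8 points share the same libraries and are a description. Over 11091 tested genes with a coding length (91.6% of those tested), rho was 0.14 in batch 1 and 0.0056 in batch 2. Median batch 1 folds of all genes ran from −0.79 below 600 coding bases over −0.58 at 1000 to 1500 bases to 0.25 at 3000 bases and above. Below 600 bases the quartiles of single genes were −2.05 and 0.33. A range of class medians cannot be compared with the range of 8 single genes. The same rank correlation was 0.09 over 15 other TOP mRNAs and 0.11 over 71 cytosolic ribosomal protein mRNAs in batch 1, so the order by length seen in the 8 members was not seen within those lists. In batch 2 rho was −0.48 over the ribosomal protein mRNAs, the opposite sign to the members.

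**Figure D4:**
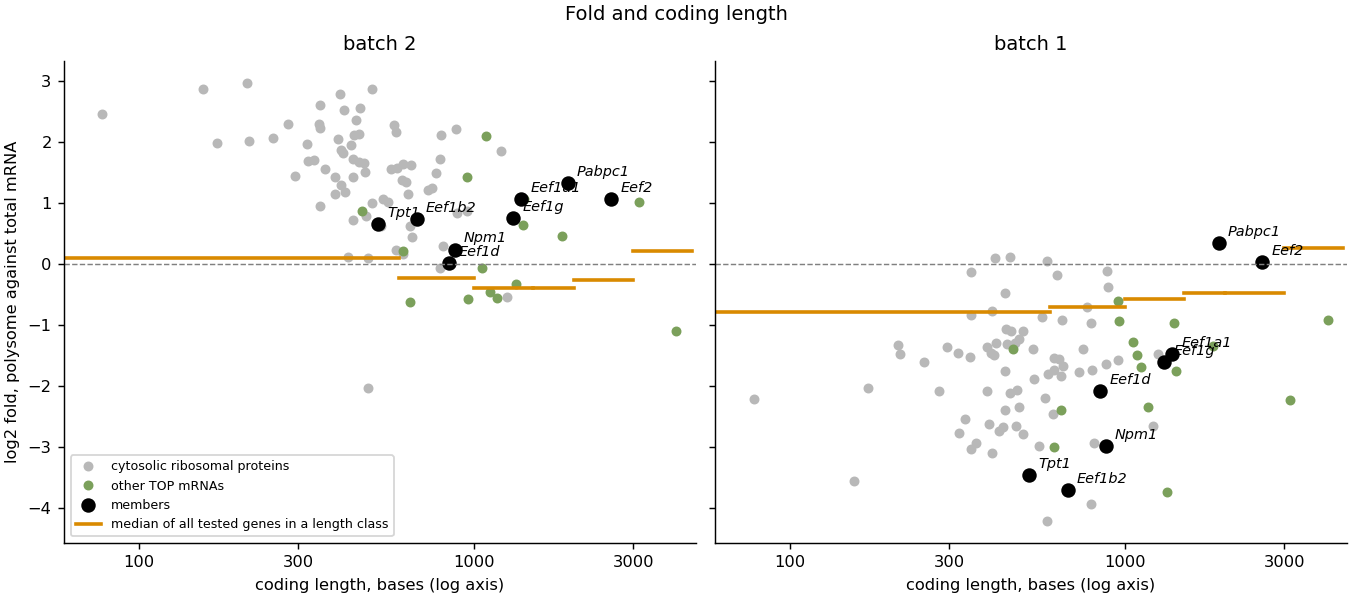
Log2 fold of polysome against total mRNA (y axis) against coding length on a log axis, batch 2 left and batch 1 right, for the 8 members (black, named), other TOP mRNAs (green) and cytosolic ribosomal protein mRNAs (grey), with medians of all tested genes per length class (orange). In batch 1 the members lie between −3.71 (Eef1b2) and 0.35 (Pabpc1), mostly higher with rising length. The shortest, Tpt1, lies at −3.46 and the longest, Eef2, at 0.02.

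Other TOP mRNAs encode initiation factors and proteins that bind nascent chains, among others. Of 15 tested, 13 had the higher fold in batch 2 and 0 the lower, with a median difference of 1.81, and 9 were called without ER1, ER2 and LR1. All 15 were lower in polysomes of batch 1 (median −1.49), while in batch 2 4 were higher and 1 was lower (median 0.21), or 1 and 1 without ER1, ER2 and LR1. Eif3f, a subunit of initiation factor eIF3, had a log2 fold of 2.10 ± 0.45 in batch 2 (SE) and −1.49 ± 0.41 in batch 1. Eif3e, another eIF3 subunit, had −0.32 ± 0.38 in batch 2, not called, and −3.75 ± 0.41 in batch 1. Btf3, a subunit of the nascent polypeptide-associated complex, had 0.21 ± 0.28 in batch 2, not called, and −3.01 ± 0.30 in batch 1. Eif2s3x, the gamma subunit of eIF2, had 1.07 ± 0.29 in batch 2 and −1.75 ± 0.29 in batch 1. Without ER1, ER2 and LR1, at most 1 of Eif3f and Eif2s3x was still called higher in batch 2, since 1 of the 15 was. The differences between batches were 3.59, 3.43, 3.22 and 2.83 for Eif3f, Eif3e, Btf3 and Eif2s3x, with adjusted p of at most 0.000255.

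Cytosolic ribosomal protein mRNAs, the largest class of TOP mRNAs, differed between batches in 70 of 71 genes, all with the higher fold in batch 2, with a median difference of 3.19, and 63 were called without ER1, ER2 and LR1. In batch 2 57 were higher and 0 lower (median 1.57), and in batch 1 0 were higher and 62 lower (median −1.61). Without ER1, ER2 and LR1 19 were still higher in batch 2 and 0 lower. Rps15a had 2.05 ± 0.37 in batch 2 and −2.63 ± 0.36 in batch 1 (SE). Rps7 had 0.22 ± 0.35 in batch 2, not called, and −4.22 ± 0.37 in batch 1. The differences between batches were 4.69 for Rps15a, 4.44 for Rps7, 4.47 for Rpl36a and 3.83 for Rpl13a, with adjusted p of at most 1.26e-05. Beside these, the median of the 8 members in batch 2 (0.74) was lower than that of the ribosomal proteins (1.57), and in batch 1 the medians were −1.85 for the members and −1.61 for the ribosomal proteins. A difference between the lists was not tested.

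A further list held 5 tested genes of cytosolic elongation factors, or linked to them by name or function, not among the TOP mRNAs followed here. Of these 5, 2 had the higher fold in batch 2. They were Eef2k (1.25 ± 0.42, SE, adjusted p = 0.041), the kinase that inactivates eEF2, and Eif5a2 (2.08 ± 0.72, adjusted p = 0.0466), a form of eIF5A. Both lost the call without ER1, ER2 and LR1 (adjusted p = 0.566 for Eef2k and 0.16 for Eif5a2), and with RLE scaling alone (adjusted p = 0.0577 and 0.0606). Eif5a, which helps ribosomes through proline stretches, had a difference of 0.93 ± 0.34 (adjusted p = 0.0576). Eef1e1, a protein of the aminoacyl-tRNA synthetase complex, was higher in polysomes of both batches, at 1.48 ± 0.30 in batch 2 and 0.77 ± 0.29 in batch 1, and its difference of 0.71 ± 0.41 did not pass (adjusted p = 0.246). Its batch 2 call was lost without ER1, ER2 and LR1 (adjusted p = 0.0682) and its batch 1 call without T4 (0.144), T15 (0.0593), T19 (0.0569) or T22 (0.0503). Of 4 mitochondrial elongation factors, 0 had the higher and 1 the lower fold in batch 2. That was Tufm, the mitochondrial counterpart of eEF1A, at 0.32 ± 0.28 in batch 2, not called, and 1.98 ± 0.29 in batch 1, with a difference of −1.65 ± 0.40 (adjusted p = 0.00554). With ER1, ER2 and LR1 left out, that difference was −1.33 (adjusted p = 0.103).

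Among 7 proteins that bind TOP mRNAs or belong to the La-related family, Tia1, which holds TOP mRNAs in stress granules, had the higher fold in batch 2 (difference 1.87 ± 0.45, SE, adjusted p = 0.00558) and Cnbp, a zinc finger protein, the lower (−1.65 ± 0.38, adjusted p = 0.00398). Neither was called without ER1, ER2 and LR1 (adjusted p = 0.186 for Tia1 and 0.148 for Cnbp). The mRNA of Larp1, which binds the TOP tract, was higher in polysomes of both batches, at 1.85 ± 0.32 in batch 2 and 2.20 ± 0.32 in batch 1, and its difference of −0.34 ± 0.44 did not pass (adjusted p = 0.639). Of 4 other poly(A) binding proteins and their partners, 2 had the higher fold in batch 2, Paip2 (2.15 ± 0.47, adjusted p = 0.00251), an inhibitor of the Pabpc1 protein, and Pabpc4 (1.94 ± 0.62, adjusted p = 0.03), its paralogue. Paip2 kept its call without ER1, ER2 and LR1 (adjusted p = 0.0259) and Pabpc4 did not (adjusted p = 0.212). Pabpn1, the nuclear poly(A) binding protein, was higher in polysomes of both batches, at 1.49 ± 0.30 in batch 2 and 0.74 ± 0.30 in batch 1, with the batch 1 call lost without T2, T3, T4 or T22 (adjusted p of 0.0575 to 0.126) and under 2 other alternatives. Of 5 nucleolar proteins, edgeR called 0 between batches, with 2 at an unadjusted p below 0.05, while DESeq2 called 2, both with the lower fold in batch 2. Nop58 was lower in polysomes of both batches (−1.54 ± 0.33 in batch 2 and −2.33 ± 0.34 in batch 1), as was Ncl (−1.56 ± 0.29 in batch 2 and −1.83 ± 0.28 in batch 1), and Fbl was higher in both (1.04 ± 0.26 in batch 2 and 1.87 ± 0.26 in batch 1). Without ER1, ER2 and LR1 the batch 2 call of Nop58 was lost (adjusted p = 0.0814).

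Across the 13 tumours the mean of the 8 differences followed ribosomal protein mRNAs most closely of the 7384 genes searched. The nearest was Rps4x, with a Pearson r of 0.992 over 13 tumours, 0.993 over the 6 of batch 2 and 0.936 over the 7 of batch 1. Rpl36a (r = 0.991), Rpl24 (0.990), Rps23 (0.987) and Rpl38 (0.986) came next, and the 8 nearest were all ribosomal protein genes. For Eef1a1 alone the nearest were Rpl27 (r = 0.974), Rps6 (0.971) and Rpl7a (0.966), with r of 0.956, 0.971 and 0.976 within batch 2 but 0.63, 0.77 and 0.19 within batch 1. Pabpc1 followed others, with Zmym5 nearest (r = 0.924), then Zmym2 (0.877) and Prpf18 (0.875), with r of 0.895 to 0.952 within batch 2 and 0.79 to 0.85 within batch 1. All of these values share the tumours, the libraries and the batch division. Among the 28 pairs of members r was 0.36 to 0.97 over 13 tumours (median 0.78). Within batch 2 it was 0.044 to 0.988 (median 0.72) over 6 tumours, and within batch 1 it was −0.57 to 0.87 (median 0.37) over 7 tumours, with 20 of 28 pairs above 0.

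The series' design text names tumour size as the basis of the comparison, and the division at 1000 mg was set here from the labelled weights. None of the 8 members was called between large and small tumours in polysome mRNA, total mRNA or polysome minus total, where 0.0% of all genes were called in each by edgeR. At an unadjusted p below 0.05 there were 1362 genes in polysome mRNA, 538 in total mRNA and 1385 in polysome minus total. DESeq2 called 147 genes in polysome mRNA, 0 in total mRNA and 129 in polysome minus total, with 0 members among them. The size by batch terms called 0 members and 0 genes by edgeR, with 655 to 904 genes at an unadjusted p below 0.05, and DESeq2 called 13 to 76 genes and 0 members.

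In polysome mRNA the largest size differences were in Pabpc1, Eef1b2 and Eef1d, none past the adjusted threshold. Pabpc1 had 301, 411 and 483 CPM in large and 794, 1353 and 592 CPM in small tumours of batch 2, with no overlap. In batch 1 it had 260.0 and 139 CPM in large tumours, against 149 to 747 CPM in small tumours, so that 1 large tumour lay inside that range and 1 below it. The log2 difference was −0.94 ± 0.38 (SE, adjusted p = 0.327). Eef1b2 had 176, 245 and 267 CPM in large and 168, 108 and 78.9 CPM in small tumours of batch 2, again with no overlap. In batch 1 it had 42.0 and 12.0 CPM in large tumours, and 10.1 to 28.8 CPM in small tumours, which overlap. The log2 difference was 0.89 ± 0.34 (SE, adjusted p = 0.298). Eef1d differed the other way round by batch, with 106, 151 and 96.4 CPM in large and 178, 111 and 115 CPM in small tumours of batch 2, which overlap. In batch 1 it had 53.5 and 101 CPM in large tumours, above all small tumours at 14.9 to 47.9 CPM. The log2 difference was 0.81 ± 0.36 (SE, adjusted p = 0.367), and it was −0.20 in batch 2 alone and 0.37 without T22. The polysome differences of the other 5 members were −0.41 to 0.37.

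In total mRNA the size differences of the 8 members were −0.20 to 0.27 on the log2 scale, with SE of 0.22 to 0.54. For polysome minus total they were −0.83 to 0.60, with SE of 0.34 to 0.57. Pabpc1 had the lowest, −0.83 ± 0.43 (adjusted p = 0.468), and Eef1d the highest, 0.60 ± 0.39 (adjusted p = 0.581). With 5 large and 8 small tumours, size differences of the order of these errors were not detectable.

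**Figure D5:**
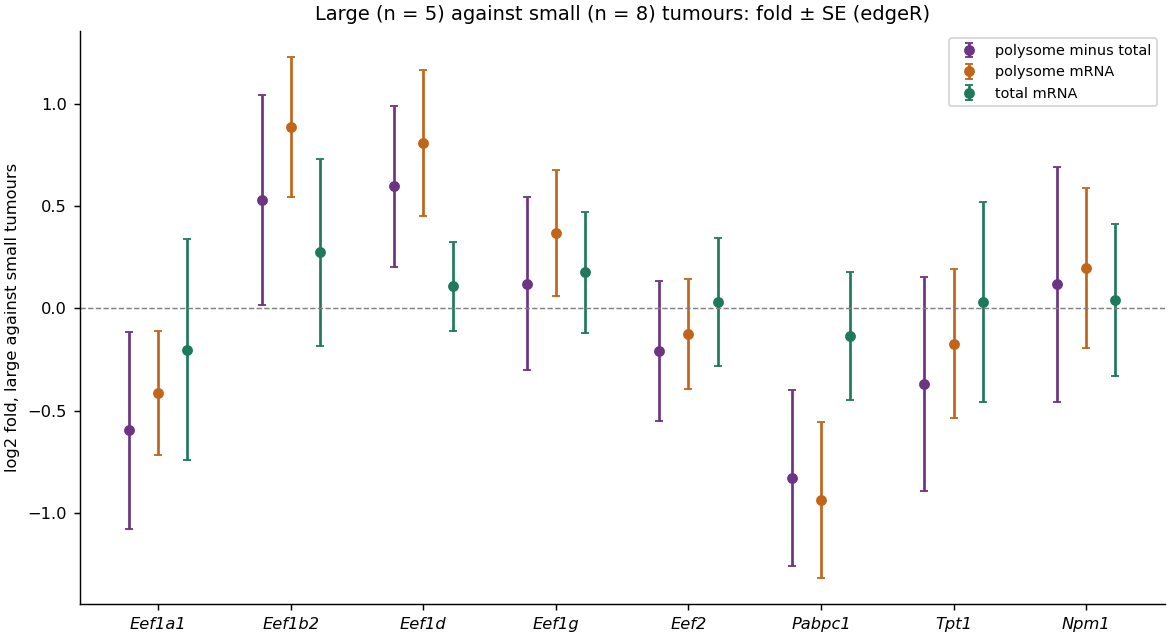
Log2 difference between large and small tumours (y axis) for each member, with its SE, for polysome minus total, polysome mRNA and total mRNA, over 5 large and 8 small tumours. No value passed the adjusted threshold, and Pabpc1 and Eef1b2 in polysome mRNA lie farthest from 0, at −0.94 and 0.89.

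Reads of overlapping exons cannot be told apart here, on opposite strands because the tables give no strand, and on the same strand in any case. Exons of Eef1b2 overlap those of Ndufs1 on the opposite strand, which had 8.71 to 25.3 CPM in polysome mRNA of batch 2 and 6.88 to 46.2 CPM in that of batch 1. In total mRNA Ndufs1 had 38.1 to 101 CPM in batch 2 and 69.9 to 113 CPM in batch 1. Exons of Eef1d overlap those of Naprt on the same strand, which had 2.91 to 21.2 CPM in polysome mRNA of batch 2 and 4.49 to 81.7 CPM in that of batch 1. In total mRNA Naprt had 10.7 to 44.4 CPM in batch 2 and 14.6 to 27.1 CPM in batch 1. Exons of Eef1a1 overlap those of Gm26377, and exons of Eef1b2 those of Gm27390, each on the same strand. Eef1g, Eef2, Pabpc1, Tpt1 and Npm1 overlap no exon of another annotated gene. Several of the 8 genes have processed pseudogenes nearly identical to their mRNA, and how the authors' counting treated reads shared with them is not given in the sources used here.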

How the data were processed

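Total mRNA and polysome mRNA of 13 tumours were made into SmartSeq2 libraries, which cover whole transcripts and do not record the strand. The deposited tables hold, per library, read counts and log2 values for 19549 gene rows, of which 830 join several gene names. HISAT2, HISAT and limma and the build mm10 are named in the submitters' processing notes, with no version. How reads were counted, and on which annotation, is not given in the sources used here. In 10472 rows the log2 values deposited by the authors equal log2(count + 0.5) rescaled by 1 constant per library; they were not used for tests.

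The counts were scaled with TMM factors, filtered with filterByExpr and fitted with the quasi-likelihood test of edgeR 4.0.16 (robust, R 4.3.3), with Benjamini-Hochberg adjustment over all genes tested and a threshold of 0.05. The fit of polysome against total mRNA has a block per tumour, and size and batch each crossed with RNA source, with both size classes, and for the average both batches, weighted equally. Size and batch within an RNA source were fitted with both as terms. Both libraries of a tumour come from the same animal, so the pairing comes from the labels, and their deviations had a median r of 0.25, against −0.017 between tumours. Per-tumour values are CPM with a prior count of 1 on the log2 scale. The method was tested on counts simulated with known changes in the batch difference and in the size comparisons. There the RNA sources did not differ otherwise and all genes had the same spread, so the simulation was simpler than these data. Folds within a batch and the comparison of batches within an RNA source were not simulated. DESeq2 1.42.0 and limma voom 3.58.1, RLE and upper-quartile scaling, filters (none, or a mean of at least 10 CPM), tumours left out, and other terms were alternatives. The members and lists were chosen with earlier results of these data known. Named genes of the other lists come from those with the 4 lowest p in the batch difference or the average of their list; genes of similar pattern are those with the highest r among rows with a mean of at least 10 CPM. Starts and lengths came from GENCODE release M21 and RefSeq windows on GRCm38. The 5′ stretch of 1 member is not reported here. Each library is a separate tumour or RNA source, and no pair of libraries was identical.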

Additional observations from a re-analysis of the deposited data

Results flagged for a closer look

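Polysome against total mRNA differed between batch 2 and batch 1 by the test of the difference itself in 7 of the 8 mRNAs, each with the higher fold in batch 2. The log2 differences were 2.54 for Eef1a1, 4.44 for Eef1b2, 2.10 for Eef1d and 2.36 for Eef1g (edgeR, adjusted p of at most 0.000659). For Tpt1 the difference was 4.11 (adjusted p = 1.92e-05), for Npm1 3.23 (adjusted p = 0.000395) and for Eef2 1.04 (adjusted p = 0.0317). Batch 2 lay above batch 1 in every pair of tumours for each of these except Eef2. In 48 groups of a member, a quantity and a batch, 0 held a tumour that stood apart from the others by Dixon's criterion, which chance passes in about 1 group in 20. That criterion looks only at the single highest and lowest tumour. It cannot flag tumours that stand apart together, such as the low batch 2 tumours in total mRNA of Eef1a1.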

How the results depend on the processing

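The lower polysome levels of 6 members in batch 1 were called in each of 22 alternatives, and the batch difference kept its direction for all 8 members in each of 21. It was called for 5 to 8 members, the batch 2 fold for 1 to 6 and the average over batches for 6 to 8. Of all genes, 17.4%, 34.6% and 56.6% were called as reported for the batch difference, the batch 2 fold and the average. The numbers of all genes called moved between alternatives too, so these member counts are no result about the members. Leaving out ER1, ER2 and LR1 together, and the comparison of batches within an RNA source, were added after the data had been seen. Each tumour is a block in the fit as reported. Without that replicate block 6 members were called for the batch difference, 2 in batch 2 and 6 in batch 1, and 1610 genes differed between batches. Deviations of LR and ER tumours with the same number had r of 0.20, −0.020 and 0.37 in total mRNA and −0.032, 0.039 and 0.044 in polysome mRNA. So few pairs cannot decide whether the number pairs tumours, and the fit as reported does not use it. With that number as a replicate block the size comparisons called 0 genes. RLE scaling moved the median fold of all genes by 0.12 in batch 1 and −0.11 in the batch difference, and DESeq2 by 0.13 and −0.12. Counts limit the small members of batch 1: 72 polysome counts stood behind the lowest value of Npm1. Below, a value beside a gene is a log2 fold or difference, and the cause was not tested.

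Without ER1, ER2 and LR1, the values were 1666 genes and 1 member called and Eef1a1 −0.071, Eef1b2 −0.21, Eef1d −0.085, Tpt1 −0.34, Npm1 −0.89, Btf3 −0.22, Eef2k −0.29, Cnbp 0.28 and Rps7 −0.72 for the batch 2 fold, 865 genes called and Ncl −0.26 for the batch difference, Eef1b2 −0.10, Tpt1 −0.35 and Npm1 −0.30 for size in total mRNA and Tpt1 0.23 for size in polysome minus total. There were also 72 genes called for size by batch in total mRNA, 5 genes called for size by batch in polysome minus total, 939 genes and 4 members called for batch in polysome mRNA and 5 genes called and Tpt1 0.58 for batch in total mRNA. Without the tumour block (no replicate block), the values were Eef2 −0.017 for the batch 1 fold and Rps7 −0.080 for the batch 2 fold. With the LR and ER number as a replicate block in batch 2, the values were Eef1a1 0.40 and Eef2 −0.21 for size in total mRNA, Eef1d −0.20, Eef1g −0.00017 and Tpt1 0.064 for size in polysome mRNA and Eef1d −0.24, Eef1g −0.45 and Npm1 −0.58 for size in polysome minus total. In batch 2 alone, the values were Eef1a1 0.0067 and Eef2 −0.16 for size in total mRNA, Eef1d −0.20 and Tpt1 0.0085 for size in polysome mRNA and Eef1d −0.24, Eef1g −0.47 and Npm1 −0.64 for size in polysome minus total. In batch 1 alone, the values were Eef1b2 −0.35, Eef1g −0.063, Tpt1 −0.48 and Npm1 −0.53 for size in total mRNA and Eef2 0.011 for size in polysome mRNA. Without a batch term, the values were Eef1b2 −0.15, Eef1g −0.013, Tpt1 −0.060 and Npm1 −0.26 for size in total mRNA, Eef2 0.0073 and Tpt1 0.60 for size in polysome mRNA and Eef1a1 0.082, Eef2 0.027 and Tpt1 0.90 for size in polysome minus total. With log2 tumour weight in place of the size classes, the values were Eef2 −0.024 for size in total mRNA, 1 gene called for size in polysome mRNA and Npm1 −0.0043 for size in polysome minus total. By voom, the values were Eef1a1 0.022 and Tpt1 −0.024 for size in total mRNA, Npm1 −0.051 for size in polysome minus total, 1 gene called for size by batch in polysome minus total and 1 member called for batch in total mRNA. By DESeq2, the values were 147 genes called for size in polysome mRNA, 129 genes called for size in polysome minus total, 41 genes called for size by batch in total mRNA and 13 genes called for size by batch in polysome mRNA. There were also 76 genes called for size by batch in polysome minus total and 3185 genes and 1 member called for batch in total mRNA. With no filter on low counts, the values were 3 genes called for size in polysome mRNA, 8 genes called for size in polysome minus total and 16 genes called for size by batch in polysome minus total.

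Member counts with no count of all genes beside them are no result about the members in what follows. Leaving out 1 tumour at a time moved other values. Where this left 1 large tumour in batch 1, it was assumed to vary like the other groups. For the batch 1 fold, this gave Eef2 −0.061 without T22 to 0.12 without LR3. The batch 2 fold had 2 members called without ER1 to 6 without ER3, Eef1d −0.20 without ER1 to 0.17 without LR1, Npm1 −0.11 without ER1 to 0.55 without ER3 and Rps7 −0.085 without ER1 to 0.62 without ER3. For the batch difference, this gave 1385 genes called without ER1 to 2227 without T2. Size in total mRNA had Eef1a1 −0.46 without LR3 to 0.64 without ER3, Eef1b2 −0.15 without LR3 to 0.59 without ER3, Eef2 −0.19 without T4 to 0.20 without LR2, Pabpc1 −0.33 without LR3 to 0.13 without ER3, Tpt1 −0.53 without LR3 to 0.50 without ER3 and Npm1 −0.16 without ER1 to 0.28 without ER3. For size in polysome mRNA, this gave 0 genes called to 42 without T19, Tpt1 −0.44 without T4 to 0.14 without T22 and Npm1 −0.10 without T4 to 0.39 without T22. Size in polysome minus total had Eef1g −0.14 without T22 to 0.39 without LR3 and Npm1 −0.27 without T4 to 0.47 without ER1. For size by batch in total mRNA, this gave 0 genes called to 4 without ER3. Size by batch in polysome minus total had 0 genes called to 7 without ER3. For batch in polysome mRNA, this gave 5 members called without T22 to 8 without T2. Batch in total mRNA had 839 genes called without ER1 to 2746 without LR2, 0 members called to 1 without ER3, Eef2 −0.33 without LR3 to 0.059 without T4 and Tpt1 −0.77 without ER3 to 0.051 without ER2.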
